A study of Mus musculus with 11 samples.

Results

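The genes described here are 8 markers of Schwann cells and cardiac nerves, namely Sox10, Cdh19, Ncam1, Scn7a, Gfra3, Pmp22, Mbp and S100b. They were taken by name from a table of 54532 genes, in which each of the 8 had a single row, and all 8 were among the 14862 genes with enough counts to test. The libraries are 11 RNA sequencing samples of whole heart from C57BL/6 mice, all with 26 weeks as their time label. The METTL3 group held 4 libraries labelled HFD+STZ+AAV METTL3, the HFD+STZ group 4 libraries and the chow group 3, and the design text speaks of METTL3 overexpression. The labels leave the abbreviations unexplained; HFD is commonly a fat-rich diet, STZ streptozotocin, which damages pancreatic beta cells, and AAV adeno-associated virus. METTL3 catalyses N6-methylation of adenosine in RNA. No label names the promoter or serotype of the AAV or says whether HFD+STZ or chow mice received a control virus.

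Schwann cells are the glia of peripheral nerves and arise from the neural crest. In the heart they accompany the sympathetic, parasympathetic and sensory axons, most of which carry no myelin, so that a cardiac Schwann cell typically ensheathes several axons without forming myelin. The cell bodies of many cardiac neurons lie outside the heart, and whole-heart RNA therefore holds little neuronal messenger RNA beside that of the intracardiac ganglia.

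The libraries held 13900531 to 16952639 counts. Mitochondrial genes took 37.7% to 45.5% of METTL3 libraries, 28.6% to 32.5% of HFD+STZ libraries and 9.28% to 27.4% of chow libraries, the lowest being chow replicate 3. That library stood apart from the other chow libraries, with a chi-square per gene of 304 and 344 against them, where other pairs within a group had 15.5 to 55.2, and it had the fewest genes with a count, 15734. Mettl3 itself averaged 8.39 ± 2.19 CPM in METTL3 hearts, 6.35 ± 1.58 CPM in HFD+STZ hearts (SD, n = 4 each) and 6.11 ± 2.67 CPM in chow hearts (SD, n = 3), where CPM is the count scaled by the normalised library total. Its log2 fold change over HFD+STZ was 0.40 (SE 0.32), which did not pass the test (adjusted p = 0.759, edgeR), so this gene does not check the METTL3 labels. The sum of 6 cardiomyocyte markers, among them Myh6 and Tnnt2, lay between 20238 and 33618 CPM in every library.

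Because METTL3 acts on adenosines in a short sequence context, of which GGACT is a common form, the match nearest the stop codon of the longest coding transcript is shown for the 6 markers below, with GGACT in capitals and 10 bases on each side. Gfra3 and Mbp are named only. Methylation was not measured in these libraries, and a match is a description of the sequence alone.
Sox10: aggaccatccGGACTacaagtacca
Cdh19: tgctaacaagGGACTtctctttatc
Ncam1: cccagggcgaGGACTtaaaaatgga
Scn7a: attaatccagGGACTcaggtcaagg
Pmp22: tagacccttgGGACTagcgagttcc
S100b: aagccagagaGGACTccagcagcaa
All coordinates are mm10, and the 4 genes on the minus strand are written as transcribed. The Sox10 window is coding, in exon 4 of 5 (chr15:79159311-79159335, minus strand), as are those of Cdh19 in exon 11 of 12 (chr1:110893243-110893267, minus strand), Ncam1 in exon 19 of 20 (chr9:49507009-49507033, minus strand) and Scn7a in exon 25 of 25 (chr2:66676154-66676178, minus strand). The Pmp22 window is in the 3′ UTR (chr11:63159325-63159349, plus strand) and that of S100b in the 5′ UTR (chr10:76253921-76253945, plus strand). On the transcript strand, matches were most dense in Gfra3, with 3.01 per 1000 bases, followed by S100b with 2.02, Pmp22 with 1.65, Ncam1 with 1.07, Sox10 with 0.719, Scn7a with 0.681, Cdh19 with 0.511 and Mbp with 0.417. The median of 13121 tested genes with a coding transcript was 1.05, and 92.9% of them held at least 1 match. Scn7a and Cdh19 lay under that median, and Ncam1 lay close to it.

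Scaled per 1000 bases of gene length, the markers differed widely in level. In METTL3 hearts Pmp22 averaged 27.3 ± 4.92 CPM per kb and Scn7a 9.38 ± 0.393 CPM per kb (SD, n = 4). Cdh19 followed with 3.10 ± 0.442 CPM per kb. The other 5 averaged between 0.246 CPM per kb for Mbp and 0.977 for Gfra3, and neighbours among Gfra3, Sox10, Ncam1 and S100b did not differ beyond their spread. The first 3 ranks were the same in HFD+STZ and chow hearts, although in chow hearts Cdh19 at 1.27 ± 0.274 CPM per kb did not differ from S100b at 1.15 ± 0.563 beyond their spread (SD, n = 3). In those groups Scn7a averaged 5.71 ± 0.440 and 5.86 ± 1.17 CPM per kb. Pmp22 is made by many cell types outside nerves, so its level in whole heart is not a measure of Schwann cells alone.

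**Figure D1:**
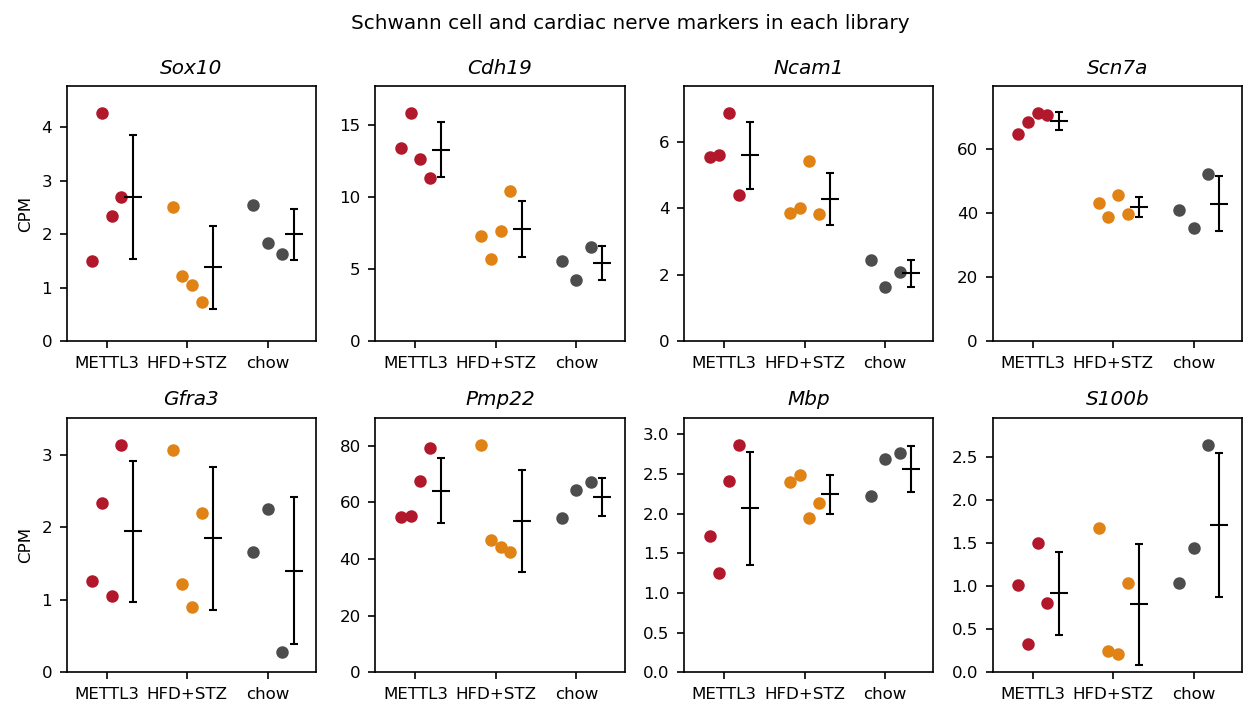
CPM of each marker in each library (points; vertical axis from 0) by group, with the group mean and SD in black (n = 4 METTL3, 4 HFD+STZ and 3 chow). The METTL3 points of Scn7a lie between 64.9 and 71.3 CPM, above every HFD+STZ and chow point, while the groups overlap for Mbp.

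Set against chow hearts, METTL3 hearts held more RNA of 3 of the 8 markers. By their labels these groups differ in HFD+STZ and in the AAV together, which this comparison cannot tell apart. Ncam1 rose 2.74-fold, Cdh19 2.45-fold and Scn7a 1.60-fold, and the myelin genes Mbp and Pmp22 did not pass the test. A call means a Benjamini-Hochberg adjusted p under 0.05 over all genes in edgeR's quasi-likelihood test, and 1.82% of the genes tested were called higher and 1.37% lower in this comparison. In bulk tissue, a change in the number of cells of a type and a change in RNA per cell cannot be told apart.

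Cdh19 encodes a cadherin of the Schwann cell lineage (ENSMUSG00000047216, chromosome 1, 110888326 to 110977584, minus strand). It lay at 13.4, 15.8, 12.6 and 11.3 CPM in METTL3 replicates 1 to 4, at 7.32, 5.72, 7.60 and 10.4 CPM in HFD+STZ replicates 1 to 4, and at 5.54, 4.19 and 6.53 CPM in chow replicates 1 to 3. Every METTL3 library was above every other library, and HFD+STZ and chow overlapped. For METTL3 over chow the log2 fold change was 1.29 (SE 0.26; adjusted p = 0.0279, edgeR).

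Ncam1 encodes an adhesion molecule of neurons, non-myelinating Schwann cells and some muscle cells (ENSMUSG00000039542, chromosome 9, 49502136 to 49798925, minus strand). It lay at 5.56, 5.60, 6.87 and 4.39 CPM in METTL3, at 3.85, 4.01, 5.44 and 3.84 CPM in HFD+STZ, and at 2.44, 1.61 and 2.08 CPM in chow libraries. Both groups of HFD+STZ mice lay wholly above chow, and they overlapped each other. METTL3 exceeded chow by a log2 fold change of 1.45 (SE 0.29; adjusted p = 0.0282, edgeR).

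Scn7a encodes an atypical sodium channel that in glia responds to the sodium level outside the cell (ENSMUSG00000034810, chromosome 2, 66673425 to 66784914, minus strand). It lay at 64.9, 68.5, 71.3 and 70.6 CPM in METTL3, at 43.3, 38.9, 45.8 and 39.6 CPM in HFD+STZ, and at 41.1, 35.5 and 52.4 CPM in chow libraries. The METTL3 libraries stood above all others with a narrow spread, and HFD+STZ lay within the range of chow. METTL3 over chow gave a log2 fold change of 0.68 (SE 0.16), close to the threshold (adjusted p = 0.0453, edgeR).

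Groups did not overlap, METTL3 being higher, for these 3 of the 8 markers, against 10.5% of all genes tested, and the opposite held for none of them, against 8.26%. The median log2 fold change of the 8 was 0.45, and that of all genes tested was -0.01. The same 3 genes were called without chow replicate 3, and without chow replicate 3 and HFD+STZ replicate 1 together. Leaving out any METTL3 library or chow replicate 2 ended all 3 calls, with adjusted p of 0.0521 to 0.132 in edgeR. Of the 11 fits that left out 1 library, Scn7a kept its call in 2, and Cdh19 and Ncam1 in 6 each. A fit of METTL3 and chow alone also ended them (adjusted p of 0.0782 to 0.149), and with the range of the sample codes as a covariate the adjusted p was 0.178 to 0.187. Of the codes in the labels, 25 to 33 hold no chow library and 78 to 98 hold only 1 METTL3 library, so only 1 METTL3 library shares a range with chow.

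**Figure D2:**
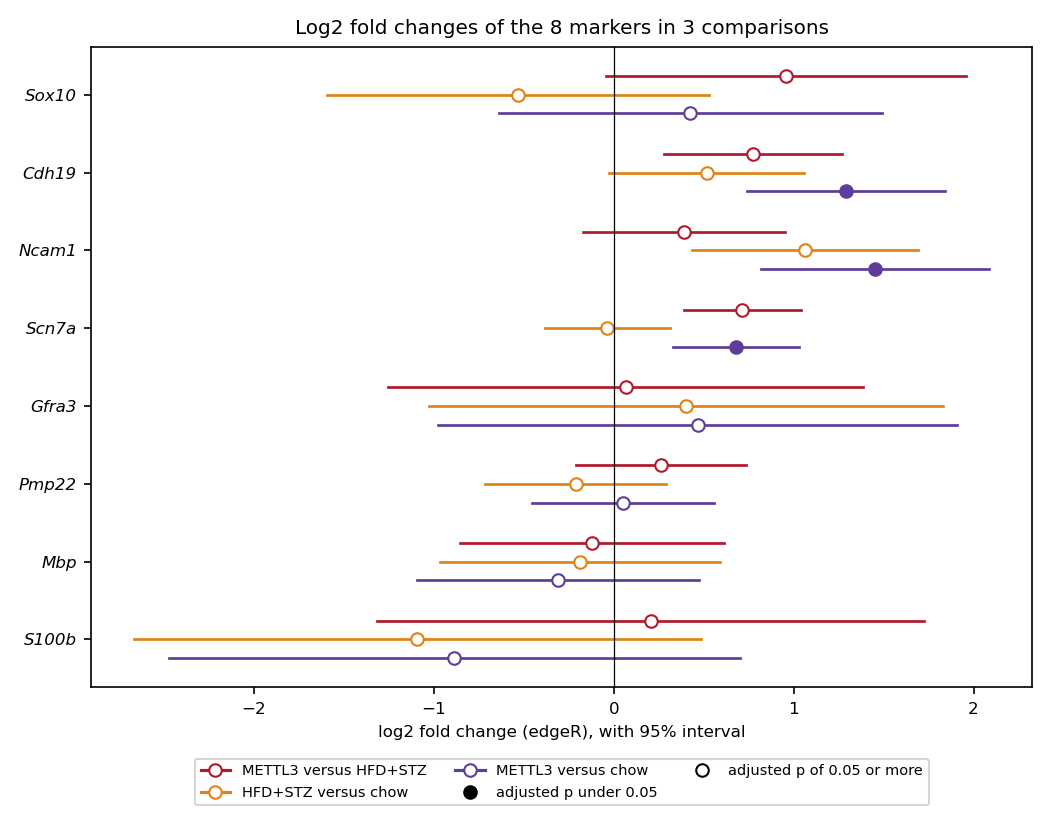
Log2 fold changes of the 8 markers (edgeR) with their 95% intervals, by comparison; filled points have a Benjamini-Hochberg adjusted p under 0.05. The only filled points are those of Cdh19, Ncam1 and Scn7a for METTL3 versus chow, at 1.29, 1.45 and 0.68.

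METTL3 and HFD+STZ hearts differ in their labels by the AAV alone. Between them edgeR called 0 of the 8 markers, and 0% of all genes tested were called in either direction. Scn7a had a log2 fold change of 0.72 (SE 0.15, 95% interval 0.39 to 1.04) and Cdh19 of 0.77 (SE 0.23, 95% interval 0.28 to 1.27), and edgeR's adjusted p was 0.350 and 0.373. These 2 markers had an unadjusted p under 0.05 and groups that did not overlap. An unadjusted p under 0.05 was found for 5.43% of all genes in the higher and 3.63% in the lower direction, and groups did not overlap for 5.43% and 4.14%. The DESeq2 Wald test and limma voom with quality weights each called 1 marker, Scn7a, with adjusted p of 0.00544 and 0.0144. Without chow replicate 3 and HFD+STZ replicate 1, edgeR called Scn7a as well (adjusted p of 0.0211). Within the code range of 25 to 33, with 3 libraries in each group, the log2 fold change was 0.71 for Scn7a and 0.81 for Cdh19, with edgeR adjusted p of 0.0946 and 0.143.

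Sox10, the transcription factor that the Schwann lineage needs throughout its development, lay at 1.49, 4.26, 2.34 and 2.69 CPM in METTL3, at 2.51, 1.22, 1.05 and 0.731 CPM in HFD+STZ, and at 2.54, 1.83 and 1.63 CPM in chow libraries. METTL3 and HFD+STZ overlapped through HFD+STZ replicate 1 alone, the other HFD+STZ libraries lying below every METTL3 library. METTL3 over HFD+STZ gave a log2 fold change of 0.96 (SE 0.46, 95% interval -0.04 to 1.96; adjusted p = 0.565, edgeR). Counts of Sox10 ran from 12 to 51 per library, and edgeR and limma voom did not call the difference. DESeq2 gave Sox10 a log2 fold change of 0.943 (SE 0.475) without an adjusted p. Of the 8 markers 7 had a log2 fold change above 0 in this comparison, where 49.6% of all genes tested did and 50.4% lay below 0, and the median of the 8 was 0.33.

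The comparison of HFD+STZ with chow hearts called 0 of the 8 markers in edgeR, where 0.135% of all genes tested were called higher and 0.0336% lower. Ncam1 had the smallest p of the 8 (unadjusted edgeR p of 0.00291, the only one under 0.05, against 5.58% of all genes in the higher direction). Its log2 fold change was 1.06 (SE 0.29; adjusted p = 0.201, edgeR), and its groups did not overlap, as in 5.52% of all genes in that direction and 4.88% in the other. DESeq2 called Ncam1 (adjusted p of 0.0235), and limma voom called Ncam1 and Cdh19 (adjusted p of 0.00458 and 0.0327). Scn7a had a log2 fold change of -0.04 (95% interval -0.38 to 0.31). Of the 8 markers 3 lay above 0 and 5 below, against 48.4% and 51.6% of all genes. These comparisons share libraries, so their values for a gene are not independent of one another: METTL3 over HFD+STZ gave 0.39 (SE 0.26) for Ncam1, and its adjusted p was 0.684 in edgeR.

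The remaining markers are myelin proteins, a glial calcium-binding protein and a receptor, and edgeR and limma voom called none of the 4 in any of the 3 comparisons, at an unadjusted edgeR p above 0.05 throughout. DESeq2 called none either, and gave no adjusted p for Mbp, S100b and Gfra3 between METTL3 and HFD+STZ. Pmp22, a membrane protein of compact myelin, lay at 55.0 to 79.2 CPM in METTL3, 42.6 to 80.4 CPM in HFD+STZ and 54.4 to 67.1 CPM in chow libraries. HFD+STZ replicate 1 was at 80.4 CPM and the other HFD+STZ libraries at 42.6 to 46.8 CPM. Mbp, a cytoplasmic component of myelin, averaged 2.07 ± 0.717 CPM in METTL3, 2.24 ± 0.248 CPM in HFD+STZ (SD, n = 4 each) and 2.56 ± 0.288 CPM in chow hearts (SD, n = 3), with a log2 fold change of -0.31 (95% interval -1.09 to 0.48) for METTL3 over chow. S100b, the calcium-binding protein used to label glia, averaged 0.917 ± 0.488, 0.791 ± 0.702 and 1.71 ± 0.835 CPM in METTL3, HFD+STZ and chow hearts, on 3 to 47 counts per library. Gfra3, the co-receptor through which Ret binds artemin, averaged 1.95 ± 0.973, 1.85 ± 0.983 and 1.40 ± 1.01 CPM in the same order, on 5 to 55 counts. For METTL3 over chow the 95% interval of the log2 fold change was -2.47 to 0.70 for S100b and -0.98 to 1.91 for Gfra3.

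Across the 11 libraries the 8 markers did not follow a single pattern. Cdh19 and Scn7a had a Pearson r of 0.84 in log2 CPM and Cdh19 and Ncam1 one of 0.81, while Cdh19 and Mbp had one of -0.59 and Sox10 and Cdh19 one of 0.25. These values are descriptions without a p, since the libraries fall into 3 groups and share their scaling. Among 12151 named genes with a mean of at least 1 CPM, predicted genes left out, those most like Cdh19 over these 11 libraries were Pdgfd (r of 0.952), Etl4 (0.948) and Prkacb (0.918). Those most like Scn7a were Fcho2 (0.980), the gene described as membrane-associated ring finger 7, ENSMUSG00000026977, whose symbol the table holds in the form of a date (0.967), and Fbxo11 (0.964). Those most like Sox10 were Zfp974 (0.919), Usp39 (0.910) and G2e3 (0.900).

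The markers also differed in base composition, which moved with the fold changes of all genes. Over 14851 genes with a known transcript, which are not independent replicates, GC content had a Spearman rho of -0.50 with the log2 fold change of METTL3 over HFD+STZ and of -0.35 with that of METTL3 over chow, against -0.03 for HFD+STZ over chow. Cdh19 at 37.4% and Scn7a at 40.2% GC lay at percentiles 1.9 and 7.2 of tested genes, Ncam1 at 49.9% near the median of 49.6%, and Sox10 at 61.8% at percentile 98.3. With loess offsets for GC content and gene length, the log2 fold change of METTL3 over chow was 0.78 for Cdh19 and 0.27 for Scn7a, without a call (edgeR adjusted p of 0.159 and 0.482), and 1.40 for Ncam1, which was still called (adjusted p of 0.0452). For METTL3 over HFD+STZ the same offsets gave 0.43 for Scn7a, 0.36 for Cdh19 and 1.27 for Sox10, each with an edgeR adjusted p of 0.996.

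**Figure D3:**
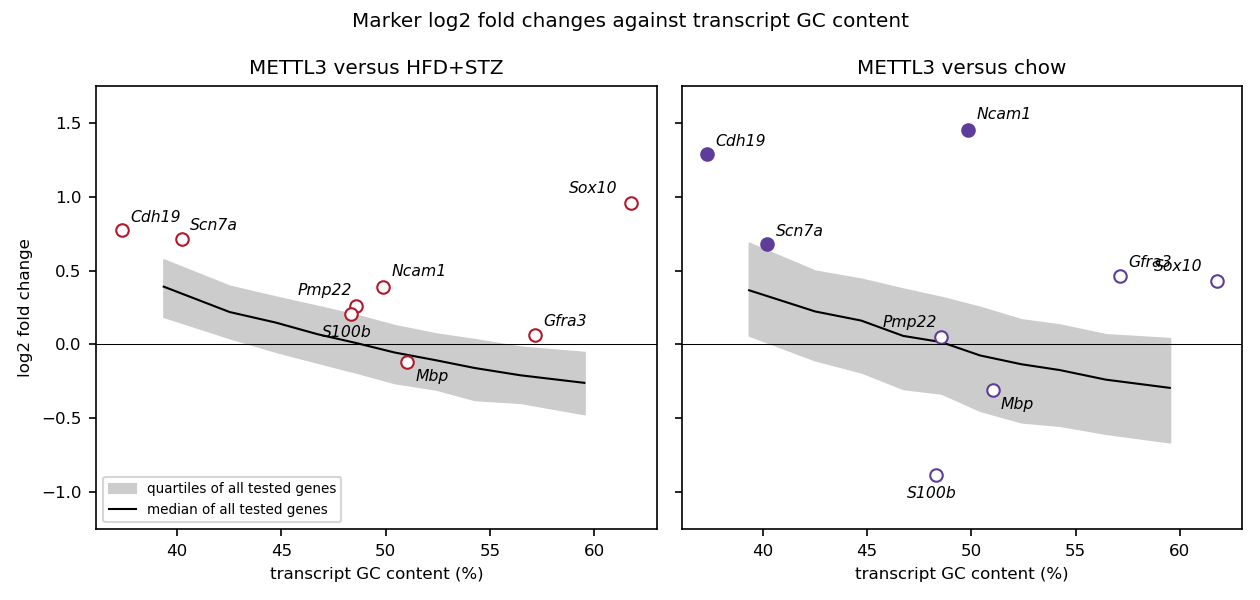
Log2 fold change (vertical axis) against GC content of the longest transcript (horizontal axis, %) for the 8 markers, with the median and quartiles of all tested genes in 10 bins of GC content. Cdh19 and Scn7a sit at the low-GC end, where the median of all genes is above 0. Cdh19, Ncam1, Sox10 and Gfra3 lie above the upper quartile of genes at their GC content in both panels. Scn7a and Pmp22 also do so for METTL3 versus HFD+STZ. Scn7a lies close to the upper quartile for METTL3 versus chow, at 0.6788 against 0.6863 in the lowest GC bin. S100b lies close to it for METTL3 versus HFD+STZ, at 0.2055 against 0.1998 in its bin.

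**Figure D4:**
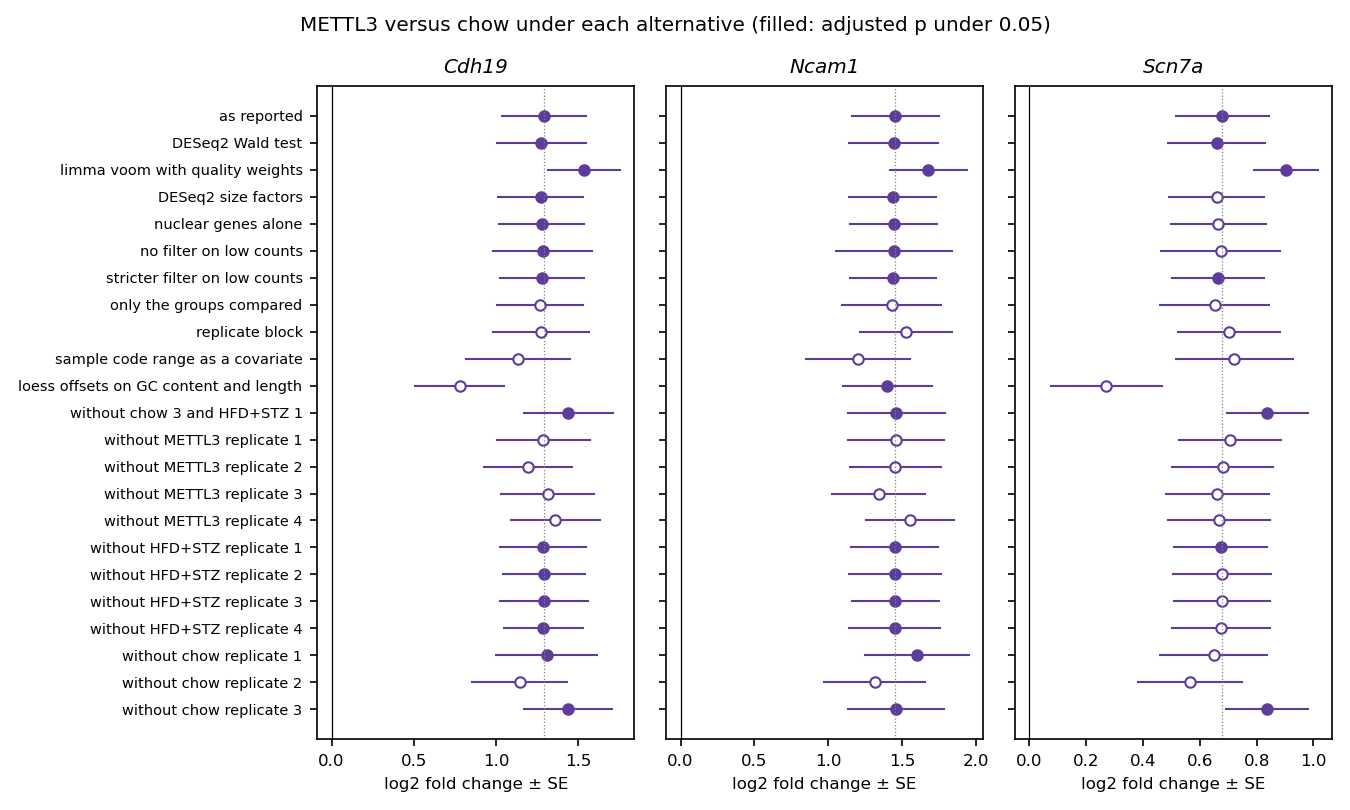
Log2 fold change of METTL3 over chow (horizontal axis, with SE) for the called markers as reported and under each alternative; filled points have an adjusted p under 0.05 and the dotted line marks the reported value. All values are above 0, and the lowest for Cdh19 and Scn7a, 0.78 and 0.27, come with the offsets for GC content and length.

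Genes of the same cells that were listed beside the 8 markers gave no calls by edgeR in any comparison. Of the 40 tested in these 4 lists, an unadjusted p under 0.05 was found for 1 higher and 0 lower between METTL3 and HFD+STZ, and for 2 higher and 3 lower in each of the other comparisons. Over all genes tested that held for 5.43% higher and 3.63% lower between METTL3 and HFD+STZ. The shares were 10.6% higher and 11.1% lower between METTL3 and chow, and 5.58% higher and 6.53% lower between HFD+STZ and chow. Of 14 further myelin genes 7 were tested. METTL3 over HFD+STZ gave log2 fold changes of -0.20 (SE 0.19) for Mal, a membrane protein of myelin, 0.03 (SE 0.23) for Cnp, an enzyme of non-compact myelin, and -0.74 (SE 0.75) for Prx, a scaffold protein of myelinating Schwann cells, and the median of the 7 was 0.29.

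Of 17 further genes of the Schwann lineage 13 were tested, with a median log2 fold change of 0.43 for METTL3 over chow and 12 of 13 above 0, against 49.2% of all genes. Erbb3, the neuregulin receptor subunit on which Schwann cells depend, averaged 9.34 ± 1.21, 8.56 ± 1.40 and 8.93 ± 4.60 CPM in METTL3, HFD+STZ and chow hearts. Its log2 fold change of METTL3 over chow was 0.06 (SE 0.32). The matrix gene Matn2 had 0.07 (SE 0.31), the adhesion gene Cadm4 0.55 (SE 0.30) and Art3, an ADP-ribosyltransferase family gene, 0.43 (SE 0.26). Cadm4 and Art3 had lower mean levels in METTL3 than in HFD+STZ hearts, with log2 fold changes of -0.31 (SE 0.27) and -0.46 (SE 0.24). HFD+STZ over chow gave them 0.86 (SE 0.30) and 0.89 (SE 0.27), and neither was called (adjusted p = 0.317 and 0.240, edgeR). Groups did not overlap for these 2 of the 13 lineage genes, as for 5.52% of all genes tested in that direction and 4.88% in the other. Of the 13 lineage genes 10 were above 0 there, against 48.4% of all genes. Art3 alone made up most of the summed level of this list, with 239 ± 47.2 CPM in METTL3 hearts.

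Neuronal genes were scarce. Of 27 listed, 24 had a count in some library and 8 could be tested. Chat, Slc18a3 and Calca were at 0 in every library, which allows up to 3 counts or 0.155 to 0.269 CPM per library, for counting error only. Uchl1, a deubiquitinase abundant in neurons, averaged 24.1 ± 8.81 CPM in METTL3, 19.96 ± 3.60 CPM in HFD+STZ and 15.6 ± 12.9 CPM in chow hearts. Chow replicate 3 was at 30.4 CPM and the other chow libraries at 6.32 and 10.2 CPM, below every METTL3 and HFD+STZ library. Stmn2, a regulator of axonal microtubules, averaged 10.2 ± 3.96, 9.69 ± 4.11 and 15.5 ± 8.34 CPM in METTL3, HFD+STZ and chow hearts. Slc18a2, the vesicular monoamine transporter, averaged 3.89 ± 1.36, 2.77 ± 1.14 and 2.69 ± 0.676 CPM, and Dbh, which makes noradrenaline, 1.92 ± 0.945, 1.89 ± 0.769 and 1.51 ± 0.865 CPM in the same groups. The median log2 fold change of the 8 was 0.21 for METTL3 over HFD+STZ and -0.54 for HFD+STZ over chow.

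Of 17 signals of axon growth and guidance 12 were tested. Ntn1, a guidance cue, averaged 84.6 ± 24.6 CPM in METTL3, 106 ± 31.9 CPM in HFD+STZ and 85.6 ± 21.4 CPM in chow hearts. Nrtn, a ligand of the Ret receptor system, averaged 25.5 ± 3.26, 28.7 ± 2.36 and 62.2 ± 60.7 CPM, with chow replicate 3 at 132 CPM and the other chow libraries at 24.7 and 29.7 CPM. Gfra1, a co-receptor of the same system, had a log2 fold change of 0.04 (SE 0.31) for METTL3 over HFD+STZ.

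The summed levels of markers of other cell types are given here beside the 3 called genes. Over 6 smooth muscle and pericyte markers the summed level ran from 1398 to 1831 CPM in METTL3, 897 to 1438 CPM in HFD+STZ and 1151 to 1269 CPM in chow libraries. Rgs5 carried most of that sum, with means of 1234, 882 and 792 CPM, and 5 of the 6 genes had a log2 fold change below 0 for METTL3 over chow, with a median of -0.19. Over 6 endothelial markers the sum ran from 1027 to 1313, 803 to 1196 and 819 to 1029 CPM. The 6 cardiomyocyte markers summed to 20238 to 23766, 22192 to 33618 and 27532 to 33064 CPM. Fibroblast markers summed to 1063 to 1601, 771 to 1678 and 1134 to 1373 CPM, and macrophage markers to 135 to 263, 203 to 502 and 352 to 699 CPM. Adipocyte markers summed to 621 to 1031, 759 to 999.8 and 286 to 1295 CPM, nearly all of it Fabp4, which endothelial cells also make. The other tested adipocyte genes were Cfd and Adipoq. Cfd had means of 0.134 CPM in METTL3 and 4.45 CPM in chow hearts, and Adipoq of 0.117 and 0.661 CPM. Both METTL3 means lay under the level of 3 counts in those libraries, 0.2265 to 0.2688 CPM. Both genes lay lower in METTL3 with no overlap, as did 8.26% of all genes tested. Neither passed the test (adjusted p = 0.0736 and 0.330, edgeR). In the macrophage list 2 of 6 genes, C1qa and Csf1r, were called lower in METTL3 than in chow hearts, against 1.37% of all genes tested. No gene of the other cell type lists was called in that comparison. Melanocyte markers, listed because those cells also use Sox10, summed to 43.0 to 52.4, 34.5 to 55.5 and 35.5 to 44.7 CPM. Mitf carried most of that sum, with means of 44.9, 42.4 and 35.2 CPM in METTL3, HFD+STZ and chow hearts. Dct had means of 2.56, 2.98 and 3.68 CPM, so the sum is not a measure of melanocytes alone. Of 6 oligodendrocyte markers Olig2 and Opalin were at 0 in every library, and the list summed to 2.27 to 3.67, 2.12 to 6.27 and 2.15 to 2.49 CPM. In a fit of nuclear genes alone, METTL3 over chow kept the calls of Cdh19 and Ncam1 (edgeR adjusted p of 0.0297 and 0.0298). Scn7a was not called there (edgeR adjusted p of 0.0515). Beyond that fit and the offsets above, how far these cell types, the mitochondrial share and base composition account for the marker values was not tested.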

How the data were processed

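The authors deposited 1 table of raw counts in whole numbers, with a row per gene and a column per library, and gene lengths. Per the labels' protocols, RNA came from Trizol extracts of heart, was cleared of ribosomal RNA (RiboZero) and went into NEB libraries. FastQC, Salmon and mm10 are named in the submitters' processing notes; the strand setting and the treatment of shared reads are not stated. The other deposited column used was gene length in bases. Groups come from the sample titles, and nothing says that replicates came from separate animals, so the p-values here reflect only how far these libraries spread, which may be technical.

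Counts were fitted with edgeR 4.0.16 in R 4.3.3 (TMM, filterByExpr at 10 counts and 15 in total, 1 mean per group over 11 libraries, quasi-likelihood test, Benjamini-Hochberg adjustment over 14862 genes). Each SE is the log2 fold change over the root of its F. Alternatives were DESeq2 1.42.0, limma 3.58.1 voom, other scalings and filters, a replicate block, the sample code range, loess offsets (span 0.5) on GENCODE M21 transcript GC and deposited length, and leaving out libraries; the fit within codes 25 to 33 was chosen after seeing the data. The members and lists were chosen with earlier results of these data known. Named genes are the 8 markers, genes of the lists past the threshold, the 4 tested members of each nerve list with the highest mean CPM (2 of these genes are not reported here), and the 3 genes most like Sox10, Cdh19 and Scn7a by Pearson r of log2 CPM (prior count 2). Intervals and floors cover counting error and the modelled spread only. The procedure was tested on simulated counts. Replicates differed by more than sampling noise in every pair. Exon windows come from the GENCODE M21 transcripts, which use the mm10 assembly.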

Additional observations from a re-analysis of the deposited data

Results flagged for a closer look

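In 48 groups of 4 libraries, those of the 8 markers and of the named nerve genes, 4 had a library far from the other 3; chance flags about 1 in 20 groups. Pmp22 lay at 80.4 CPM in HFD+STZ replicate 1 and at 42.6 to 46.8 CPM in the other HFD+STZ libraries. Ncam1 lay at 5.44 CPM in HFD+STZ replicate 3 and at 3.84 to 4.01 CPM in the others of that group. Stmn2 lay at 16.1 CPM in METTL3 replicate 2 against 7.55 to 8.77 CPM, and Dbh at 3.32 CPM in METTL3 replicate 3 against 1.25 to 1.59 CPM.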

How the results depend on the processing

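Between METTL3 and chow the log2 fold changes of Cdh19, Ncam1 and Scn7a kept their direction in all 22 alternatives and their call in 13, 14 and 6 of them, and the ranges were 0.78 to 1.53, 1.20 to 1.68 and 0.27 to 0.90. Genes called over the whole table for METTL3 over HFD+STZ, HFD+STZ over chow and METTL3 over chow numbered 0 (1346 at an unadjusted p under 0.05), 25 and 475, and 129, 305 and 1509 with DESeq2, 395, 1954 and 3078 with limma voom, and 403, 493 and 1258 without chow replicate 3 and HFD+STZ replicate 1. For the last 2 comparisons they numbered 190 and 747 without a filter, 0 and 54 with only the groups compared, 1 and 1 with the code range, 56 and 193 with the offsets, and 42 for HFD+STZ over chow with a stricter filter. Leaving out 1 library gave 1 to 215 and 34 to 750.

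The replicate numbers did not pair the libraries, since only 2 of 10 same-numbered pairs had deviations correlated above 0.1 (-0.23 to 0.16). With the replicate block, 0, 2 and 5 genes were called, and no marker (adjusted p for METTL3 over chow of 0.125 for Cdh19, 0.110 for Ncam1 and 0.149 for Scn7a).

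Signs turned only for values that were not called, and the cause was not tested. For HFD+STZ over chow, limma voom gave 0.16 for Scn7a and -0.47 for Gfra3, the code range 0.12 for Mbp, 0.22 for Pmp22 and 0.0059 for Scn7a, and the fit lacking both chow 3 and HFD+STZ 1 gave 0.11 for Scn7a and -0.44 for Gfra3. For METTL3 over chow, Gfra3 was -0.37 with limma voom and -0.0258 without that pair. Leaving out 1 library gave, for METTL3 over HFD+STZ, -0.32 to 0.0547 for Mbp, -0.26 to 0.42 for Gfra3 and -0.14 to 0.87 for S100b; for METTL3 over chow, -0.0669 to 0.12 for Pmp22 and -0.0267 to 0.99 for Gfra3; and for HFD+STZ over chow, -0.13 to 0.14 for Scn7a and -0.0691 to 0.94 for Gfra3. Counts of Sox10, Gfra3 and S100b were as low as 12, 5 and 3 in a library.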
